A study of Mus musculus with 12 samples.

Results

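The mRNAs of the mitochondrial respiratory chain and ATP synthase were followed across 4 treatments of RAW264.7 cells, a mouse macrophage line. All names on the array beginning with Nduf, Uqcr, Atp5, Cox4 to Cox8 or equal to Sdha, Sdhb, Sdhc or Sdhd were taken, and a gene was kept if 1 of its probes was well above background on every array of any group. Of 90 gene names with 134 probes, 86 were kept, among 17596 genes tested in all. The brightest probe that passed stood for its gene. The groups were palmitic acid with FABP4, palmitic acid alone, FABP4 alone, and a control with neither, with 3 arrays each. Palmitic acid, a saturated fatty acid, was given at 0.2 mM and FABP4, also called aP2, a lipid carrier that fat cells and macrophages make, as recombinant protein at 200 nM, for 24 h. The cells of all 4 groups were kept in medium with 0.5% fatty acid-free BSA. Separate cultures for the 3 arrays are not stated in the labels, so p-values reflect only how far these samples scatter, which can be technical scatter.

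Complexes I to IV of the inner mitochondrial membrane pass electrons from NADH and succinate to oxygen and, except for complex II, pump protons, and complex V, the ATP synthase, uses the proton gradient to make ATP. Most subunits are encoded in the nucleus, while a few core subunits of complexes I, III, IV and V are encoded by mitochondrial DNA. In macrophages the balance between oxidative phosphorylation and glycolysis differs between states of activation.

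The 86 genes fell into 7 core subunits, 29 accessory subunits and 4 assembly factors of complex I, the 4 subunits of complex II, 8 of complex III, 15 of complex IV and 15 of complex V. The other 4 carry related names but are not subunits: Cox7a2l, a supercomplex assembly factor, Cox4nb (now Emc8), Atp5s (now Dmac2l) and Atp5sl (now Dmac2). Atp5f1 is now Atp5pb, and Ndufa4 was placed with complex IV. The 4 names that did not pass were Cox7b2, Cox8b, Cox8c and Ndufa4l2, none of them well above background on any of the 12 arrays. Below the limit, the Ndufa4l2 probe averaged 11.9, 11.2, 15.6 and 16.8 in palmitic acid with FABP4, palmitic acid, FABP4 and control cells. Just inside it, the Atp5s probe lay between 61.9 and 96.1 on the 12 arrays. These values, and all signals given here, are processed intensities divided by the array's 75th percentile and multiplied by the mean percentile of 274.1.

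Of the 86 genes, 72 had an entry in the RefSeq promoter table (GRCm38.p6), with 78 windows of 250 bases before and 50 after the transcript start. Motifs of 5 factor families that act on nuclear genes of mitochondrial proteins were searched on both strands, and no motif contains another. CCGGAAG, read by ETS factors such as GABP, was in 21.8% of the genes' windows, against 17.2% of the 12238 windows of tested genes and 8.86% of all 32851 windows of the table. GCGCATG, with the core of the NRF1 site, was in 17.9%, against 6.63% of tested genes' windows and 3.91% of all. ATGGCGG, the YY1 motif, was in 16.7%, against 7.78% and 4.05%. AAGGTCA, read by nuclear receptors such as ERR alpha, was in 10.3%, against 3.37% and 4.72%. GACGTG, read by HIF and CREB-like factors, was in 8.97%, against 9.07% and 6.38%, so its share was about that of tested genes. At least 1 motif was in 61.5% of the genes' windows, in 36.4% of those of tested genes and in 24.0% of all. A match describes letters in a window and is not a site shown to be bound.

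The first promoter shown is that of Ndufaf4, 1 of the 2 genes that passed the test, and the other pair are the only members found with 3 kinds of motif in 1 window, both of ATP synthase subunits. Capitals mark every motif match on either strand, and a run longer than 7 capitals is a motif overlapping its own reverse complement. The Ndufaf4 window is chr4:24897833-24898132 (plus strand) and holds GCGCATG. The Atp5k window, chr5:108434350-108434649 (minus strand), and the Atp5l window, chr9:44920693-44920992 (minus strand), each hold the ETS, NRF1 and nuclear receptor motifs.
Ndufaf4: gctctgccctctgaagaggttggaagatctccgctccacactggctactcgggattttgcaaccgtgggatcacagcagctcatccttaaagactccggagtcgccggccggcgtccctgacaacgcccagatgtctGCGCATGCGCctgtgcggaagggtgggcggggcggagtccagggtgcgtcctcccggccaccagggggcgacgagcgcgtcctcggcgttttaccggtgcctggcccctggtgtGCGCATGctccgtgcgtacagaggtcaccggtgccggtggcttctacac
Atp5k: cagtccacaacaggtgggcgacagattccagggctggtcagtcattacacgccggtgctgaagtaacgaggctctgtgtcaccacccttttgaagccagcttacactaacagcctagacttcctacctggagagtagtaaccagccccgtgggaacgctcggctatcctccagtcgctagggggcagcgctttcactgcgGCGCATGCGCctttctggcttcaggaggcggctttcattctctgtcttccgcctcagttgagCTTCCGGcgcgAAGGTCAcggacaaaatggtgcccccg
Atp5l: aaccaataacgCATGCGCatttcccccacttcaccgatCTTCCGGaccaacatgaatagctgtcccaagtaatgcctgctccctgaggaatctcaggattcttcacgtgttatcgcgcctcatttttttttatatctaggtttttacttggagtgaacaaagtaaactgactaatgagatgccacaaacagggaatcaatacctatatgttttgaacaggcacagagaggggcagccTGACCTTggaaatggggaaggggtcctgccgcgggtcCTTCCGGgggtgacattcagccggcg

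The probes of the genes that passed the test are shown next, since each value rests on 60 bases. The Cox6a2 probe lies at chr7:135349160-135349219 (minus strand) and the Ndufaf4 probes at chr4:24829194-24829253 and chr4:24830284-24830343 (plus strand), all in mm9 coordinates of the files. Their place in the transcript (coding or UTR) was not analysed here.
Cox6a2: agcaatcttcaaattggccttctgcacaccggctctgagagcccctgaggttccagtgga
Ndufaf4 (used): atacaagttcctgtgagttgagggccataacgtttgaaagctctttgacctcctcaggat
Ndufaf4 (further probe): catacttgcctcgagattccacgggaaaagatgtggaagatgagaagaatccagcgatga

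The 12 arrays held 59305 non-control spots each, of which 42.8% to 46.7% were well above background and 0 were saturated. By slide, all 6 arrays with palmitic acid shared slide 2 with FABP4 arrays 2 and 3, while slide 1 carried FABP4 array 1 beside the controls. Palmitic acid without FABP4 thus compares arrays of different slides, and only the FABP4 arrays link them. All 8 macrophage markers on the array, Csf1r and Cd68 among them, were well above background. Their summed signal lay between 261407 and 275381 in palmitic acid with FABP4, 259353 and 269259 in palmitic acid, 247519 and 260465 in FABP4 and 252310 and 261260 in control cells. Cd68 rose with palmitic acid, by 0.26 without and 0.35 with FABP4 on the log2 scale (limma, adjusted p = 0.020 and 0.0091), Csf1r rose with FABP4 present, by 0.26 (limma, adjusted p = 0.021), and Itgam fell without FABP4, with -0.34 (limma, adjusted p = 0.010). Of the markers of other cell types, 1 of 6 for adipocytes (Retn), 1 of 5 for fibroblasts (Col1a2), 2 of 4 for lymphocytes (Cd3e and Cd79a) and 0 of 4 for epithelium passed the filter. Retn fell in palmitic acid cells, with -0.52 against control (limma, adjusted p = 0.013). The summed signal of the fibroblast markers lay between 89.8 and 216 in palmitic acid with FABP4, 89.5 and 470 in palmitic acid, 66.9 and 84.5 in FABP4 and 70.7 and 83.3 in control cells. That of the lymphocyte markers was higher, between 1447 and 1519, 1109 and 1602, 944 and 1437, and 1237 and 1423 in the same order. The part of these markers in the results was not tested. Fewer cells with a transcript and less of that transcript per cell cannot be told apart in such total RNA. Every value is relative to the other transcripts of its array.

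The respiratory chain mRNAs differed little between the treatments. For 85 of the 86 genes, the highest and the lowest of the 4 group means lay less than 1.25-fold apart, and the exception was Cox6a2, with a span of 0.36 on the log2 scale. The median span was 0.11, and no span was taken over all genes tested to set beside it. The spread among the 3 arrays of a group was small too, with a median SD of 0.06 on the log2 scale, against 0.10 over all genes tested. The 86 genes were bright, with a median control signal of 14531, against a mean 75th percentile of 274.1 over all non-control spots. The set of all genes tested was not matched to them for signal, here or for the intervals given below. The part of signal in the spread was not tested. In simulated arrays with the spread of these data (17586 genes, palmitic acid against control), a log2 change of 0.2 was called for 4.48% of the 67 genes given it, a change of 0.4 for 55.2% of 67, and a change of 0.8 for 75.8% of 66. Among those with an SD under 0.1 the shares were 8.11% of 37 genes, 78.9% of 38 and 100% of 32. The SDs of the 86 genes reached 0.18. Changes near 0.2 were therefore mostly not called in the simulated arrays. Fewer genes carried a change there than the 8.61% that passed for palmitic acid without FABP4. The adjusted threshold was thus stricter in the simulation, and its shares can be too low for these data.

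**Figure D1:**
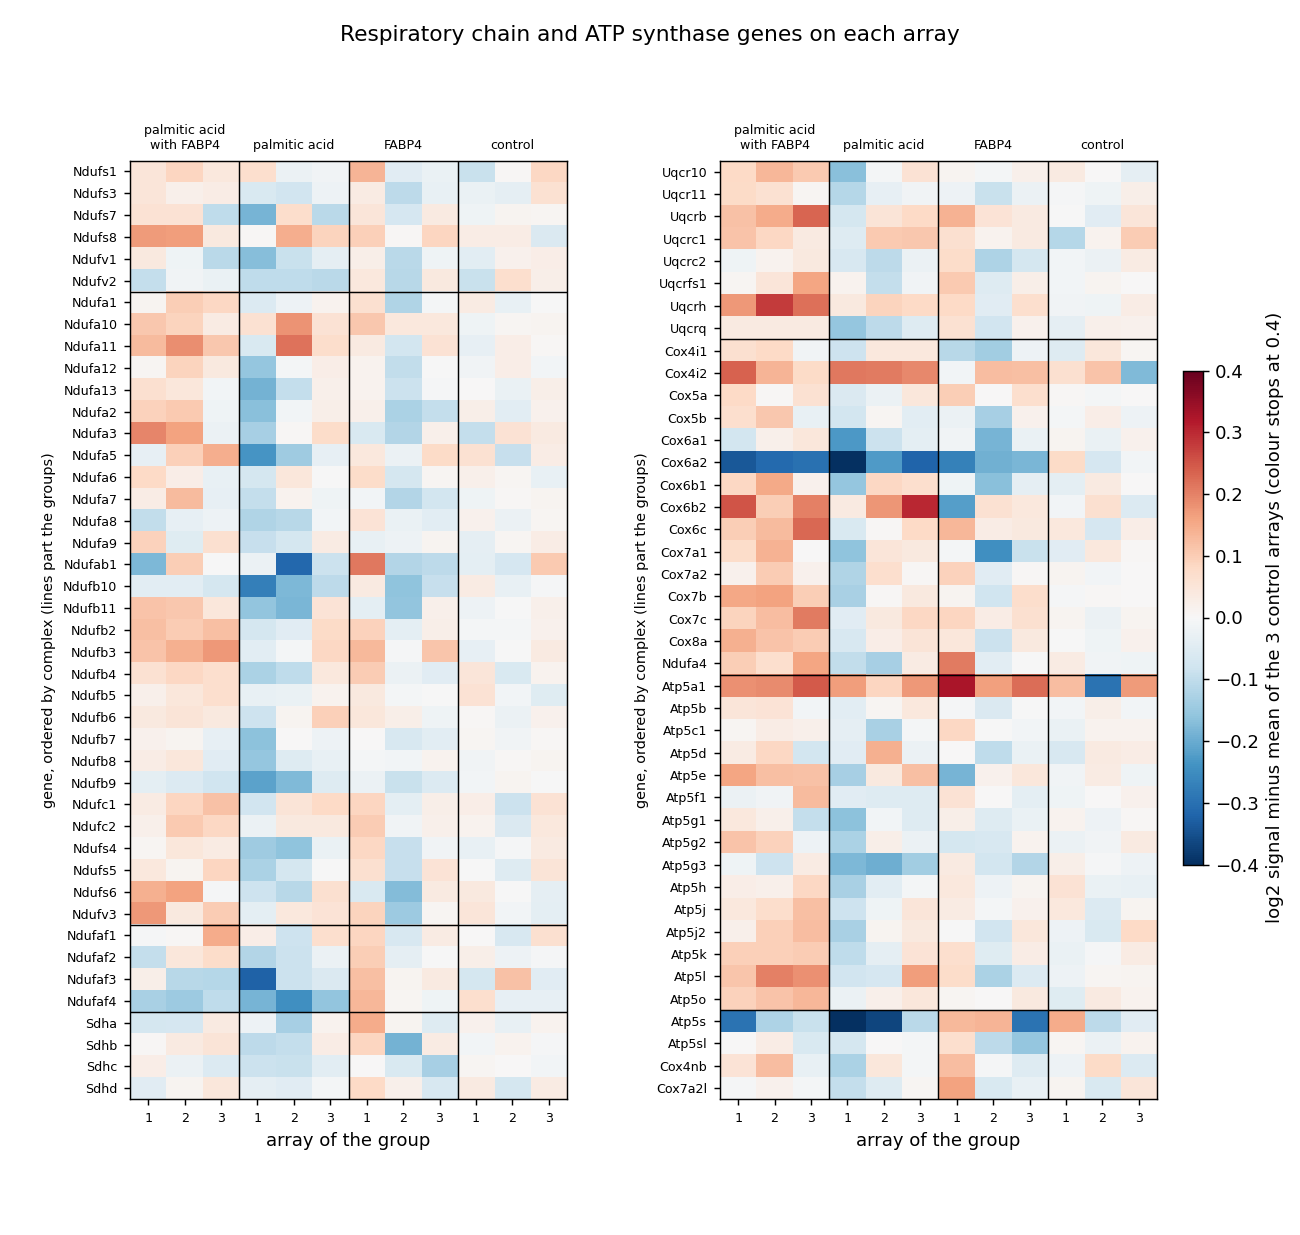
Each row is 1 gene, 85 of the 86, ordered by complex, and each column 1 of the 12 arrays, grouped by treatment. Colour gives the log2 signal minus the mean of the 3 control arrays, red for higher and blue for lower, and stops at 0.4 in either direction. Most cells are pale, and the Cox6a2 row is blue on all 9 treated arrays.

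In palmitic acid cells, 2 of the 86 genes were lower than in control cells and 0 were higher, as tested with limma at a Benjamini-Hochberg adjusted p under 0.05 over all genes. Among all genes tested, 8.61% passed, 4.88% as higher and 3.73% as lower. At an unadjusted p under 0.05, 1 of the 86 was higher and 6 were lower, against 14.4% and 12.1% of all genes. The arrays of the groups did not overlap for 3 genes on the higher side and 14 on the lower, against 17.5% and 16.4% of all genes. The 95% confidence interval lay within 1.25-fold either way for 79 of the 86 genes (91.9%), against 49.4% of all genes. Like those of the other comparisons below, these intervals come from the fit without slide as a term. This comparison lies across the slides, and the share of intervals with slide as a term is not given here. The log2 fold changes of the 86 ranged between -0.36 and 0.20 with a median of -0.03, and 24 were above 0, against a median of 0.00 and 50.1% above 0 over all genes.

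The larger of the 2 falls was that of Cox6a2, the heart and skeletal muscle isoform of complex IV subunit 6A. Its scaled signal was 234, 292 and 274 in palmitic acid cells, against 361, 326 and 340 in control cells. The groups did not overlap, and the log2 fold change was -0.36 with an SE of 0.08 (limma, adjusted p = 0.019). Its signal was 271, 276 and 278 in palmitic acid with FABP4, and 284, 299 and 302 in FABP4 cells. All 9 treated arrays lay below the 3 control arrays, FABP4 array 1 on the slide of the controls among them. For FABP4 without palmitic acid its log2 fold change was -0.21 with an SE of 0.08, and this missed the threshold (limma, adjusted p = 0.60). Cox6a1, the isoform found in most tissues, had 116101, 128212 and 132220 in palmitic acid cells, against 137047, 133381 and 137592 in control cells. These did not overlap either, but the log2 fold change of -0.12 with an SE of 0.07 missed the threshold (limma, adjusted p = 0.28).

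The second gene was Ndufaf4, an assembly factor that joins complex I as it is built and is not part of the finished complex. Its scaled signal was 1165, 1118 and 1188 in palmitic acid cells, against 1387, 1296 and 1296 in control cells. All palmitic acid arrays lay below all controls, and the log2 fold change was -0.20 with an SE of 0.05 (limma, adjusted p = 0.048). With FABP4 present it was 1211, 1197 and 1235 in palmitic acid with FABP4, against 1453, 1334 and 1310 in FABP4 cells. Here too the arrays stood apart, and the log2 fold change of -0.17 with an SE of 0.05 missed the threshold (limma, adjusted p = 0.12). Its further probe gave -0.34 with an SE of 0.09 without FABP4 and -0.29 with an SE of 0.09 with FABP4, so both probes lay on the same side in both comparisons. Ndufaf3, another assembly factor, had a log2 fold change of -0.16 with an SE of 0.08 in palmitic acid cells, with arrays that overlapped the controls (limma, adjusted p = 0.25).

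Both calls ended when slide was a term. Calls over all genes fell from 1515 to 138 with slide as a fixed block and to 191 as a random block. For Cox6a2 the log2 fold change became -0.45 with an SE of 0.14 with slide as a fixed block and -0.40 as a random block (limma, adjusted p = 0.18 and 0.11). For Ndufaf4 it became -0.06 with an SE of 0.08 with a fixed block and -0.14 as a random block (limma, adjusted p = 0.78 and 0.44). Leaving out control array 1 or 3 also ended the Cox6a2 call (limma, adjusted p = 0.075 and 0.060), and the Ndufaf4 call held in 1 of 12 fits that each left out 1 array. Whether the slide has a part in these values was not tested beyond these fits.

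**Figure D2:**
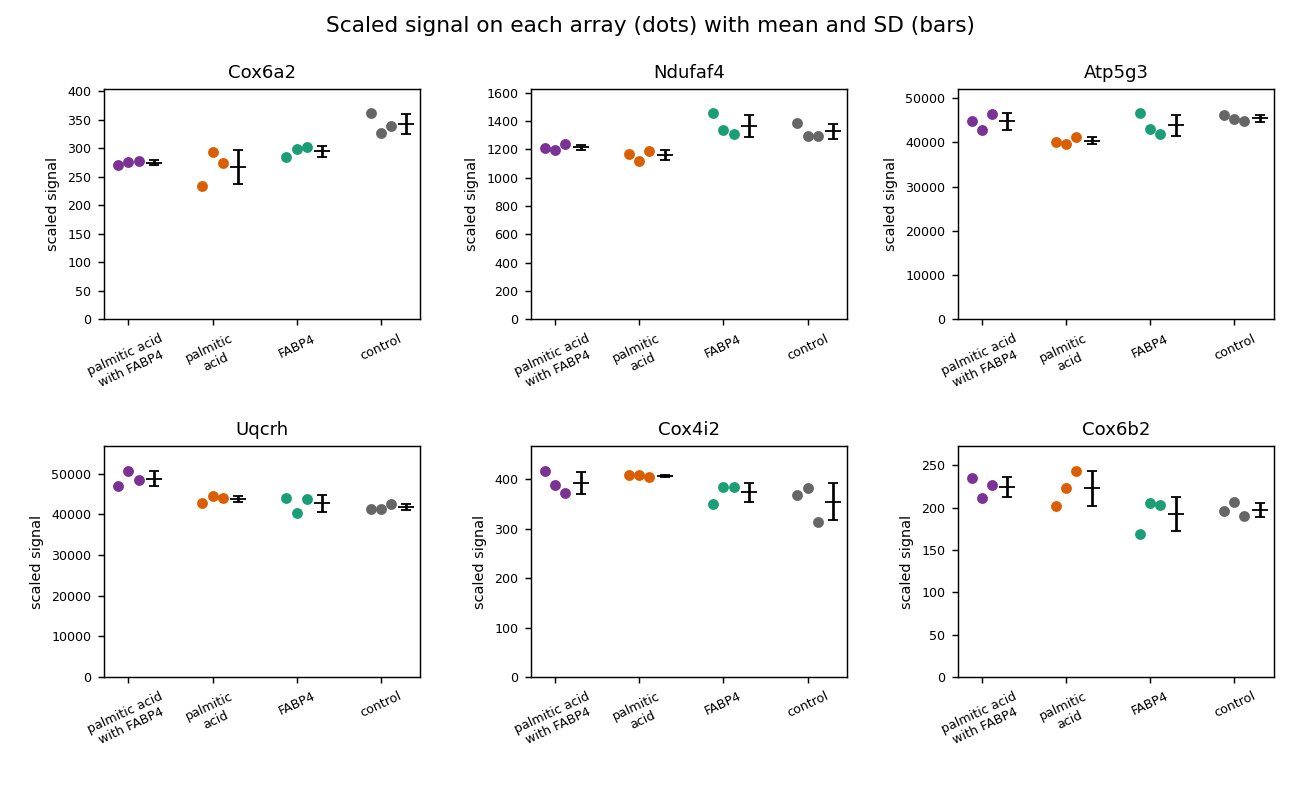
Scaled signal of 6 genes, with the 4 treatments along the horizontal axis and a linear axis that starts at 0. Dots are the 3 arrays of a group and bars the mean and SD. Cox6a2 is lower on the 9 treated arrays than on the 3 control arrays, and Ndufaf4 is lower on the 6 palmitic acid arrays than on the other 6.

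No other subunit passed, in any complex. In complex I, Ndufb10, an accessory subunit of the membrane arm, had 10451, 11159 and 11749 in palmitic acid cells, against 12944, 12382 and 12600 in control cells. These did not overlap, and the log2 fold change was -0.19 with an SE of 0.06 (limma, adjusted p = 0.083). For Ndufb9, also an accessory subunit of that arm, the fold change was -0.15 with an SE of 0.05 (limma, adjusted p = 0.092). The 7 core subunits, which carry the electron path, lay between -0.10 and 0.08, with Ndufv2 at -0.10 and Ndufs8 at 0.08. The median was -0.05 for these, -0.04 for the 29 accessory subunits and -0.12 for the 4 assembly factors.

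The 4 subunits of complex II, which oxidises succinate and also belongs to the tricarboxylic acid cycle, stayed close together. The log2 fold changes in palmitic acid cells were -0.05 for Sdha, the flavoprotein, -0.06 for Sdhb, the iron-sulfur subunit, and -0.07 and -0.03 for the membrane anchors Sdhc and Sdhd. Their SEs were 0.05 to 0.07, and none passed. In complex III the 8 values lay between -0.10 and 0.07, with Uqcrq at -0.10 and Uqcrh, the hinge protein, at 0.07.

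In complex IV, 15 subunits lay between -0.36 and 0.20. The upper end was Cox4i2, the isoform of subunit 4 that is known from lung and from cells at low oxygen. Its scaled signal was 409, 408 and 404 in palmitic acid cells, against 369, 382 and 313 in control cells. The arrays did not overlap, control array 3 was the lowest, and the log2 fold change of 0.20 with an SE of 0.08 missed the threshold (limma, adjusted p = 0.13). Cox4i1, the common isoform, had a log2 fold change of -0.00 with an SE of 0.06. The 2 other isoforms with narrow tissue patterns that were detected were Cox7a1, of muscle, and Cox6b2, of testis, at -0.02 and 0.17 with SEs of 0.08 and 0.09 and arrays that overlapped the controls. Cox8b, the muscle isoform of subunit 8, was not above background, and Cox8a, the common one, had 0.00 with an SE of 0.05.

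In complex V, Atp5g3, 1 of 3 genes for the c subunit of the rotor ring, had 40063, 39682 and 41217 in palmitic acid cells, against 46163, 45263 and 44797 in control cells. Palmitic acid arrays were lower without overlap, and the log2 fold change was -0.17 with an SE of 0.05 (limma, adjusted p = 0.068). Atp5g1, which encodes the same mature protein, had -0.08 with an SE of 0.06 and arrays that overlapped. The upper end of complex V was Atp5a1, the alpha subunit, at 0.14 with an SE of 0.11. Its control arrays gave 22971, 17184 and 23716, so that array 2 alone was low, against 23661, 22351 and 23743 in palmitic acid cells.

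**Figure D3:**
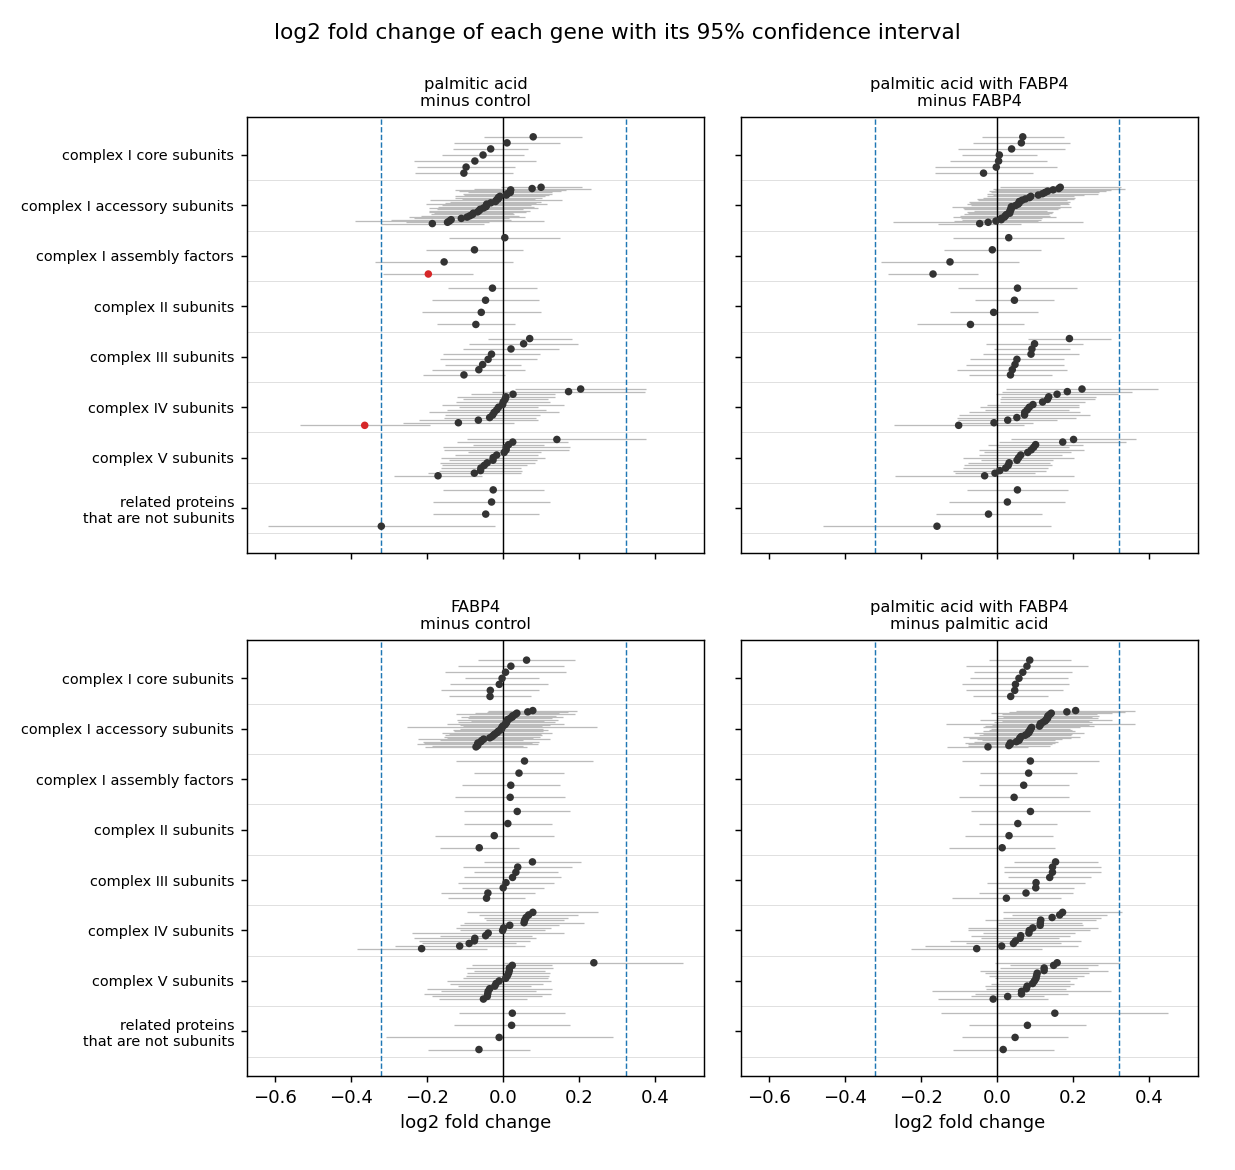
Each dot is 1 of the 86 genes, placed by its log2 fold change (horizontal axis) within its complex, and each grey line its 95% confidence interval, in 4 comparisons. Dashed lines stand at 1.25-fold either way, and red marks an adjusted p under 0.05, reached by Cox6a2 and Ndufaf4 in palmitic acid minus control only. Slide was not a term in this fit.

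Palmitic acid with FABP4, compared with FABP4 alone, moved 0 of the 86 genes past the threshold, against 3.81% of all genes (2.86% higher, 0.943% lower). With p unadjusted and under 0.05, 10 of the 86 were higher and 1 lower, against 15.2% and 5.65% of all genes. The groups did not overlap for 18 genes on the higher side and 2 on the lower, against 19.3% and 6.96%. The median log2 fold change was 0.05, as it was over all genes, and 70 of the 86 (81.4%) were above 0, against 63.3% of all genes. The interval lay within 1.25-fold for 79 of the 86, against 52.4% of all genes. The sign of these small values depended on the scaling: with quantile normalization 32 of the 86 were above 0 and the median was -0.02, and with no scaling 18 were above 0 and the median was -0.05. With the percentile over probes above background on all arrays, 47 were above 0 and the median was 0.01.

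The smallest adjusted p here was that of Uqcrh. Its scaled signal was 47010, 50655 and 48543 in palmitic acid with FABP4, against 44058, 40380 and 43712 in FABP4 cells. All 3 arrays with both agents were higher, and the log2 fold change was 0.19 with an SE of 0.05 (limma, adjusted p = 0.066). A further Uqcrh probe gave 0.23 with an SE of 0.07. It was 0.21 with an SE of 0.06 on slide 2 alone, where 2 FABP4 arrays remain (limma, adjusted p = 0.14).

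After Ndufaf4, the next were Atp5l, the g subunit of the ATP synthase, with a log2 fold change of 0.20 and an SE of 0.07, and Cox6b2, with 0.22 and an SE of 0.09 (limma, adjusted p = 0.16 and 0.20). Atp5l had 52001, 55358 and 54621 in palmitic acid with FABP4, against 50610, 44108 and 46329 in FABP4 cells. Cox6b2 had 235, 211 and 227 against 169, 206 and 203. In both genes the groups did not overlap, and FABP4 array 1 stood away from the other 2, higher for Atp5l and lower for Cox6b2. It is the only FABP4 array on slide 1. On slide 2 alone, Cox6b2 had 0.13 with an SE of 0.09 and Atp5l 0.26 with an SE of 0.08 (limma, adjusted p = 0.44 and 0.19). Cox7a1 and Cox7b had 0.19 and 0.14 with SEs of 0.08 and 0.06 (limma, adjusted p = 0.21 each). Complex IV had the largest median of the 5 complexes, 0.09, followed by complex III with 0.07, and the 4 complex I assembly factors had -0.07.

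FABP4 without palmitic acid moved 0 of the 86 genes past the threshold, against 0.017% of all genes. With p unadjusted and under 0.05, 1 was higher (Atp5a1) and 1 lower (Cox6a2), against 3.4% and 3.84% of all genes. The groups did not overlap for 2 genes on the higher side and 3 on the lower, against 4.01% and 6.42%. The median was -0.00, against -0.01 over all genes, and 42 of the 86 were above 0, against 46.4%. The interval lay within 1.25-fold for 84 of the 86, against 62.4% of all genes. Atp5a1 had 26403, 23637 and 24630 in FABP4 cells, and its log2 fold change of 0.24 with an SE of 0.11 was taken over control arrays of which array 2 was low (limma, adjusted p = 0.69). All 4 FABP4-only differences of complex II lay between -0.06 and 0.04.

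FABP4 in the presence of palmitic acid also moved 0 of the 86 past the threshold, and 0% of all genes passed. Most of the 86 lay slightly above 0: 83 of them (96.5%), against 64.9% of all genes, with a median of 0.08, against 0.03. With p unadjusted and under 0.05, 19 were higher and 0 lower, against 4.65% and 1.23% of all genes. The groups did not overlap for 28 genes on the higher side and 0 on the lower, against 11.4% and 3.1%. The largest value, 0.21 with an SE of 0.07, was that of Ndufa5, an accessory subunit of complex I (limma, adjusted p = 0.81). The interval lay within 1.25-fold for 80 of the 86, against 63.7% of all genes.

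These small positive values moved with 1 array and with the scaling. The median over the 86 genes, relative to the control mean, was 0.04, 0.07 and 0.04 on the arrays of palmitic acid with FABP4, and -0.09, -0.02 and 0.01 on those of palmitic acid. Palmitic acid array 1 was the lowest of all 12. Without it, 2 of the 86 had an unadjusted p under 0.05, while 76 were above 0 and the median was 0.06. Without palmitic acid array 2 the count at an unadjusted p was 8, and without array 3 it was 28. Leaving out an array of palmitic acid with FABP4 gave 11, 8 or 9. Across scalings this count was 5 with quantile normalization, 12 with the percentile over probes above background on all arrays and 0 with no scaling. With the median over tested genes it was 14. With no scaling between arrays the median was -0.05, and that of all genes -0.09, and 17 of the 86 were above 0. With quantile normalization the median was 0.04, against 0.01 over all genes, and 71 were above 0. With the percentile over probes above background on all arrays 73 were above 0, and with the median over tested genes 80. As reported, with no scaling and with quantile normalization, the median of the 86 genes lay above that of all genes. The sign of their median depended on whether the arrays were scaled.

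**Figure D4:**
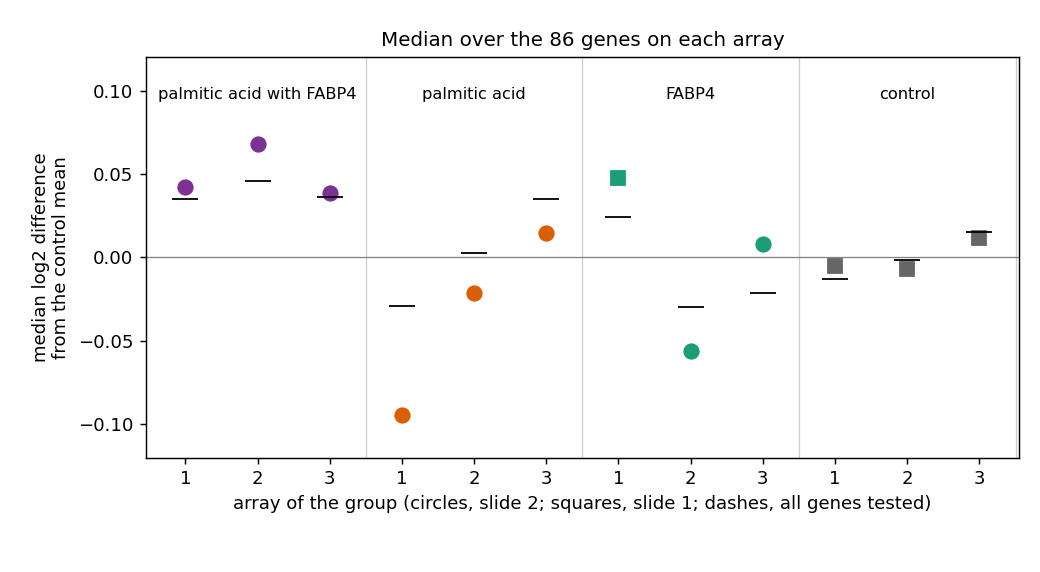
Median over the 86 genes of the log2 signal minus the control mean (vertical axis) on each of the 12 arrays (horizontal axis). Circles are arrays of slide 2, squares of slide 1, and dashes the median of all genes tested. Palmitic acid array 1 is lowest, at -0.09, and those of the combined treatment lie at 0.04 to 0.07.

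Uqcrh had 47010, 50655 and 48543 in palmitic acid with FABP4, against 42824, 44409 and 44108 in palmitic acid cells, with no overlap and a log2 fold change of 0.15 with an SE of 0.05. Atp5g3 had 44900, 42830 and 46455 against 40063, 39682 and 41217, also with no overlap and with 0.15 and an SE of 0.05. Cox7b, a small complex IV subunit, had 35379, 35510 and 34035 against 29093, 31894 and 32695, with 0.17 and an SE of 0.06. All 3 had a limma adjusted p of 0.81. By complex, the median was 0.12 for complex III, 0.10 for complex V, 0.08 for complex IV, 0.09 for the accessory and 0.06 for the core subunits of complex I, and 0.04 for complex II.

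The interaction, the effect of palmitic acid with FABP4 minus that without it, passed for 0 of the 86 genes and for 0% of all genes. With p unadjusted and under 0.05, 5 were higher and 0 lower, against 5% and 1.92% of all genes. The median was 0.09, against 0.04 over all genes, and 80 were above 0, against 62.5%. The interval lay within 1.25-fold for 63 of the 86, against 38.5% of all genes. The smallest unadjusted p was that of Atp5g3, with 0.20 and an SE of 0.07 (limma, adjusted p = 0.70). With slide as a fixed block the median was 0.03 and 58 were above 0, and with quantile normalization it was 0.03 and 57 were above 0. With no scaling it was -0.18, against -0.23 over all genes, and 0 were above 0.

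**Figure D5:**
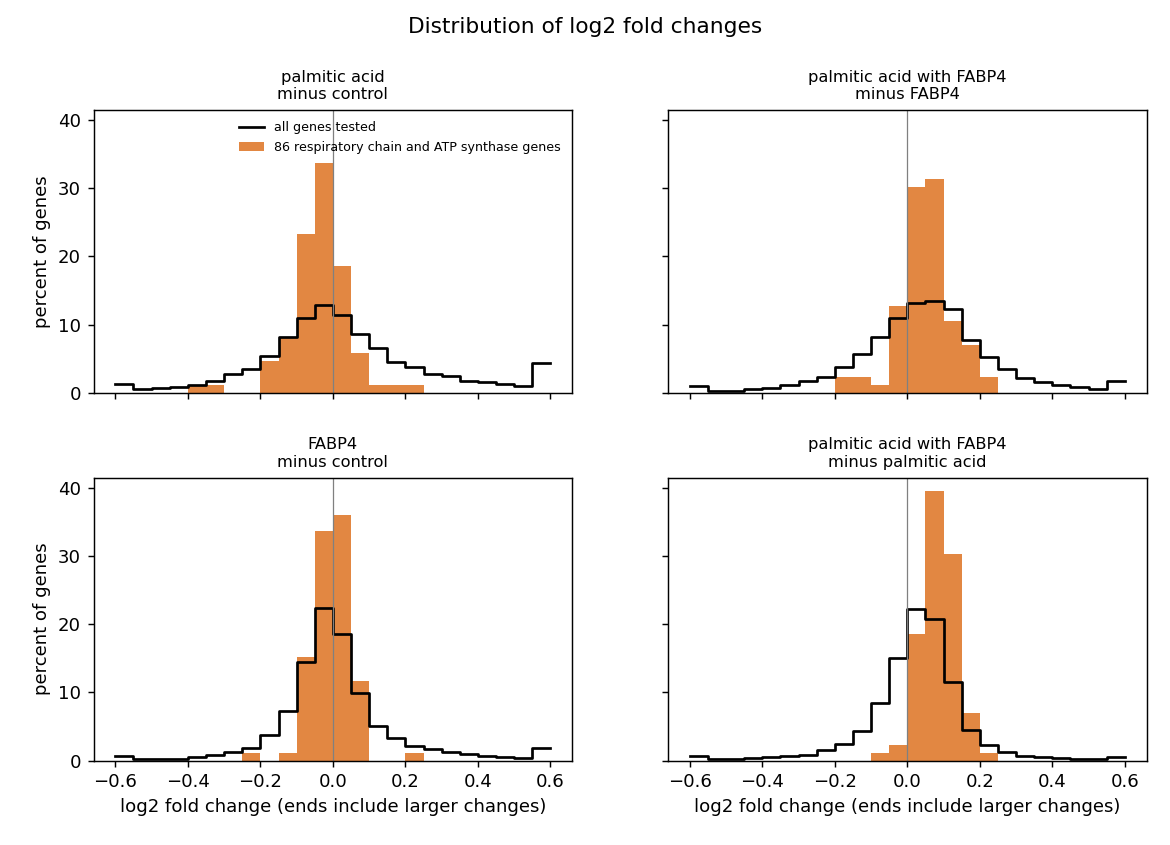
Percent of genes (vertical axis) by log2 fold change in bins of 0.05 (horizontal axis, outermost bins open), in 4 comparisons. Bars are the 86 genes and the black line all genes tested. The bars are narrower than the line in each panel, and in palmitic acid with FABP4 minus palmitic acid they centre at 0.08. The sets are not matched for signal.

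Of the 86 genes, 29 had 42 further probes that passed the filter. For palmitic acid without FABP4, 35 of the 42 lay within 0.1 on the log2 scale of the probe used, and 32 had its sign. With FABP4 present, both counts were 37. The largest difference was at Ndufb5, an accessory subunit of complex I, where a dim probe averaged 73.4 in palmitic acid cells, against 54.3 in control cells. It gave 0.43 with an SE of 0.14, while the probe used gave -0.01 with an SE of 0.04.

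The 13 subunits encoded by mitochondrial DNA, which the name rule does not take, were all detected, and 0 passed in any comparison. Their median log2 fold change was 0.01 for palmitic acid without FABP4, 0.09 for palmitic acid with FABP4, -0.00 for FABP4 without and 0.06 for FABP4 with palmitic acid. COX1, the catalytic core of complex IV, had -0.01 for palmitic acid without FABP4 and 0.19 with it. In the latter comparison the 13 lay between -0.04 and 0.19, so COX1 was at the upper end. The smallest adjusted p among them there was 0.13 (limma).

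In each related mitochondrial list but that of HIF targets, at most 1 gene passed in either palmitic acid comparison, where 3.73% of all genes passed as lower and 4.88% as higher without FABP4, and 0.943% and 2.86% with it. Of 18 tested genes for electron carriers and other subunits, 1 passed for palmitic acid without FABP4: Coq2, an enzyme of ubiquinone synthesis, fell, with -0.23 and an SE of 0.06 (limma, adjusted p = 0.048). That comparison lies across slides, and the value of Coq2 with slide as a term is not given here. Of 18 assembly factors of complexes III and IV, 1 passed with FABP4 present: Higd1a, a hypoxia-inducible protein of the inner membrane, rose, with 0.27 and an SE of 0.06 (limma, adjusted p = 0.029). Of 16 genes of mitochondrial biogenesis, 1 passed there: Gabpb1, a subunit of GABP, fell, with -0.24 and an SE of 0.06 (limma, adjusted p = 0.049). None of 4 assembly factors of complexes V and II and none of 9 uncoupling and antioxidant genes passed in either comparison.

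Of 6 tested HIF targets, genes of low-oxygen signalling that act on mitochondria, 2 passed as higher for palmitic acid without FABP4, where 4.88% of all genes did, and 4 with it, where 2.86% did. Higd1a was 1 of the 4 and is also counted among the assembly factors. Bnip3, a receptor for the removal of mitochondria, averaged 8054 in palmitic acid cells, against 3657 in control cells, and 7453 in palmitic acid with FABP4, against 4047 in FABP4 cells. Its log2 fold changes were 1.14 and 0.89 with SEs of 0.11. Bnip3l, its relative, had 0.39 and 0.42 with SEs of 0.06, and all 4 values passed. For both genes the comparison without FABP4 lies across slides, and their values with slide as a term are not given here. Pdk1, which inhibits pyruvate dehydrogenase and also stands in the list of 22 tricarboxylic acid cycle genes, passed with FABP4 present, with 0.70 and an SE of 0.13 (limma, adjusted p = 0.016), and none of the other genes of that list passed in either comparison.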

How the data were processed

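RNA from RAW264.7 cells was labelled with Cy3, starting from 50 ng according to the labels, and hybridised to 12 one-colour Agilent arrays. Per the file headers, Agilent Feature Extraction 10.7.3.1 gave each spot a background-subtracted processed intensity, and probe positions are in mm9. As deposited, intensity was not scaled across arrays, and the authors' deposited value table holds the same intensity within 0.005. Other steps of the authors are not given in the sources used here.

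Spots marked as controls or outliers were dropped, and spots of 1 probe were averaged. A probe passed if well above background on all 3 arrays of a group, which left 17596 genes. A probe with several spots needed at least as many spots above background as not, a rule set after values were seen. Values were log2 intensity minus the array's 75th percentile. A mean per group was fitted over the 12 arrays by lmFit, moderated by eBayes (limma 3.58.1, R 4.3.3; two-sided tests), with Benjamini-Hochberg adjustment over all genes and a threshold of 0.05. The fit was tested on simulated data. It missed a first rule for the share of changes of 0.8 called (75.8%), which was then replaced by rules on unbiased estimates, genes of low spread and few false calls. Figures used matplotlib 3.10.9. The 86 genes, the lists and the rule for naming genes (called genes, smallest p-values per complex and comparison, isoform pairs, all of complex II) were chosen with earlier results of these data known, and Ndufb5 and the mitochondrial DNA list after values or annotation were seen. Promoters were matched by accession, then symbol. Alternatives covered scaling, background, filter, probes, slide, moderation, replicate block and leaving out each array. Of the 86, 1 gene is not reported by name here.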

Additional observations from a re-analysis of the deposited data

How the results depend on the processing

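The count of genes called for palmitic acid without FABP4 (2) depended on the processing. It was 6 with quantile normalization, 4 with trended and robust moderation, 1 with normexp background correction, and 0 with no filter on dim probes or with slide as a fixed or random block, and it lay between 0 and 4 when 1 array was left out. With no scaling it was 2 again, but the genes were Cox4i2 and Cox6b2, both higher. For palmitic acid with FABP4 (0 called) the count was 1 with quantile normalization and with the percentile over probes above background on all arrays, Ndufaf4 as lower in both, and 1 with trended and robust moderation, Uqcrh as higher. It was 0 in each fit that left out 1 array. In the other 3 comparisons the count was 0 under every alternative run. Labels give the groups the same replicate numbers, but same-numbered arrays did not deviate together (correlations of -0.08 to 0.17, median 0.01), and with the replicate block 1 gene was called for palmitic acid without FABP4. The cause of these changes was not tested. The median for palmitic acid without FABP4 was 0.14 with no scaling and 0.04 with the fixed slide block, against -0.03 as reported, so the sign of shifts this small depends on the setting. The number of arrays, 3 a group, limits the precision.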
